A study of Mus musculus with 3 samples.

Results

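Sugar and monocarboxylate transporters were examined as the 48 genes, of 24411 in the deposited tables, whose symbols begin with Slc2a, Slc5a, Slc16a, Slc37a or Slc45a followed by a digit. The choice used gene symbols and no measured value. Of the 48, 47 were annotated as protein-coding, and Slc2a4rg-ps is a transcribed unitary pseudogene that was matched by its symbol alone and encodes no transporter. By family there were 13 Slc2 rows (12 transporters and the pseudogene), 13 Slc5, 14 Slc16, 4 Slc37 and 4 Slc45 genes.

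RNA sequencing was carried out on microglia, the macrophages that reside in brain tissue, of C57BL/6J mice labelled as 6 to 8 weeks old. All 3 libraries (replicates 1, 2 and 3) formed 1 group, with the genotype cKO and the treatment Pu.1 inhibitor. The genotype was Mir137loxP/loxP;Tmem119-CreERT2, a deletion of the gene of the microRNA miR-137 by a tamoxifen-activated Cre recombinase expressed from Tmem119, and tamoxifen was injected daily for 7 days when the mice were 7 to 8 weeks old. Pu.1, encoded by Spi1, is a transcription factor of macrophage identity. The sources used here did not name the compound or its dose, say whether mice or isolated cells received it, or assign the 4 mice to replicates. Microglia with intact Mir137 and knockout microglia without the inhibitor were not analysed here. The values therefore describe 1 condition, and neither the deletion nor the inhibitor was tested for an effect. Since separate animals were not stated for the replicates, p-values cover a spread that may be technical.

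As background, Slc2 proteins (the GLUT transporters) let hexoses move down their gradient across membranes, and Slc5 proteins couple sugars, inositol, vitamins, iodide or choline to sodium entry. Slc16 proteins (the monocarboxylate transporters, MCT) carry lactate, pyruvate and ketone bodies together with a proton, although several members carry amino acids, creatine or carnitine instead. The Slc37 family includes exchangers of sugar phosphates for phosphate at the endoplasmic reticulum, and Slc45 proteins are proton-coupled sugar carriers. In brain, glucose crosses the endothelium through Slc2a1, and the fructose carrier Slc2a5 is used as a marker of microglia.

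Estimated counts per library ran from 15710750 to 17180404. Cell type markers were measured beside the transporters. All 8 microglial markers were detected, with summed levels of 12259.7 to 12815 FPKM (fragments per kilobase of gene, scaled to library size). A gene is called detected here when each of the 3 libraries reached 1 FPKM. All 8 endothelial markers were detected too (sum 1984 to 2175 FPKM), as were all 8 of neutrophils (13677 to 15141), of choroid plexus and ependyma (6299 to 7179), of astrocytes (202 to 226), of oligodendrocytes (294 to 351) and of monocytes and border macrophages (728 to 831 FPKM). Of 8 markers each, 6 of mural cells and fibroblasts (sum 250.1 to 276 FPKM), 3 of neurons (18.6 to 20.95) and 3 of lymphocytes (26.8 to 38.1) were detected. Among the neuronal markers, Nefl had no count. The libraries thus held RNA of several cell types besides microglia. In bulk libraries a smaller number of cells of a type and less RNA per cell cannot be told apart.

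Of the 48 members, 28 (58.3%) were detected. The same rule called 47.8% of all genes in the table and 55.5% of the protein-coding genes, so the share of members was near that of protein-coding genes. A mean of at least 10 FPKM was reached by 14 members, beside 28% of all genes and 33% of protein-coding genes, and 1 member exceeded 100 FPKM, beside 3.12% of all genes. No count in any library was found for 9 members, beside 30.4% of all and 22.7% of protein-coding genes. The remaining 11 had counts but missed the detection rule. Together the members took 0.246 ± 0.0041% of all counts (SD, n = 3), and 0.158 ± 0.0031% fell to the Slc2 family.

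The families differed in how many members were expressed. All 4 Slc37 genes and 12 of 14 Slc16 genes were detected, against 7 of 13 Slc2, 4 of 13 Slc5 and 1 of 4 Slc45 rows. The level of a family was taken as the median over its members of log2(FPKM + 1). It was 3.30 ± 0.10 for Slc37 and 3.25 ± 0.09 for Slc16 (SD, n = 3), 2.05 ± 0.39 for Slc2, 0.13 ± 0.06 for Slc45 and 0.05 ± 0.04 for Slc5, beside 0.95 ± 0.02 over all genes and 1.88 ± 0.02 over protein-coding genes. Slc2 was thus near the protein-coding median. The Slc2 median fell on Slc2a6, whose level varied between libraries, and read 1.69, 2.01 and 2.46 in replicates 1, 2 and 3. A family could also rest on 1 gene. Slc2a1 made up 74.6 ± 0.027% of the summed FPKM of Slc2, Slc45a4 98.8 ± 0.62% of Slc45, Slc5a6 62.6 ± 1.16% of Slc5 and Slc37a2 60.4 ± 1.41% of Slc37. The highest Slc16 gene, Slc16a6, held 21.5 ± 0.37%, so that family was spread over more genes.

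**Figure D1:**
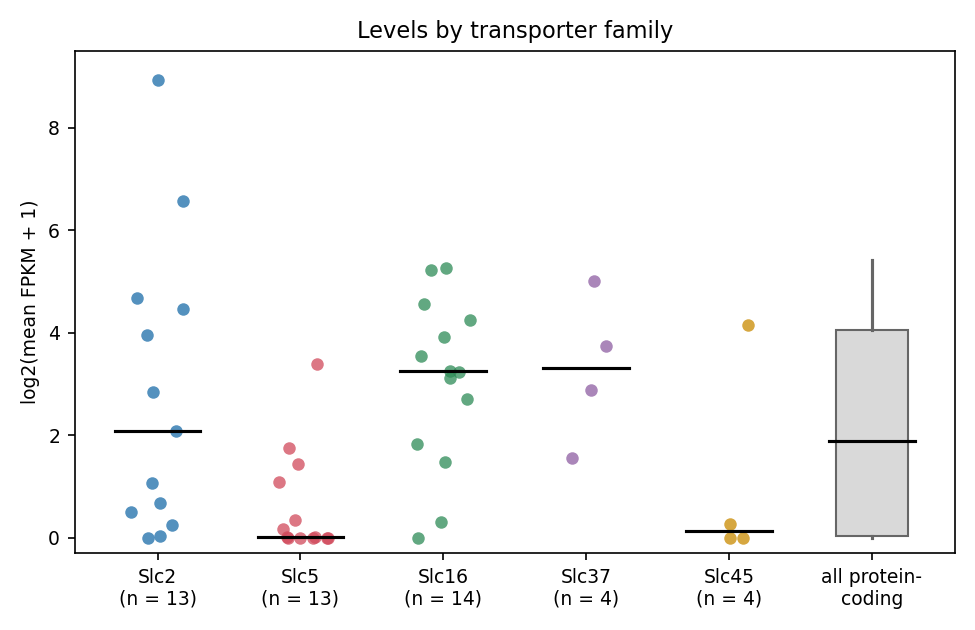
Each point is 1 of the 48 members, placed by family and by log2(mean FPKM + 1) over 3 libraries, and black lines are medians. The grey box spans the quartiles of all protein-coding genes, and its whiskers run from the 0.1 to the 0.9 quantile. Slc16 and Slc37 lie mostly above the protein-coding median, and most Slc5 members lie at or near 0.

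Among the glucose carriers, Slc2a1 (GRCm38 chromosome 4, 119108711 to 119137983), which encodes the basal glucose transporter of most cells and is abundant in brain endothelium, was the highest member. It was at 486, 477 and 495 FPKM in replicates 1, 2 and 3, a mean of 486 ± 8.91 (SD, n = 3), and stood at rank 144 of all genes. Replicate 2 was lowest and replicate 3 highest, while the summed endothelial markers were 1984, 2175 and 2013 FPKM in replicates 1, 2 and 3. Ly6c1 alone, at 1038 ± 66.6 FPKM, made up much of that sum. Of the 8 markers, 4 were highest in replicate 3, as Slc2a1 was (Pecam1, Abcb1a, Flt1 and Cdh5), and 4 in replicate 2 (Ly6c1, Itm2a, Cldn5 and Slco1c1). Only 1 of the 8 (Abcb1a) was lowest in replicate 2, as Slc2a1 was, against 5 in replicate 1 and 2 in replicate 3. The part of endothelial RNA in the Slc2a1 level was not tested. Slc2a3 (chromosome 6, 122727809 to 122801640), the high-affinity carrier known from neurons, was at 22.01, 19.95 and 21.12 FPKM. The chi-square test between libraries described below did not call Slc2a3 (adjusted p 0.097). Slc2a1 exceeded Slc2a3 by 23.1 ± 0.97 times within a library (SD, n = 3). Slc2a4, the insulin-regulated carrier of muscle and fat, was at 0.89, 1.40 and 1.03 FPKM and missed the detection rule through replicate 1 alone. Slc2a2, the carrier of liver and pancreatic islets, had 0, 3 and 0 counts.

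The fructose carrier Slc2a5 (chromosome 4, 150119283 to 150144169) was second among the members at 93.35, 93.28 and 93.48 FPKM, with a mean of 93.4 ± 0.10 (SD, n = 3). Its level was 0.192 ± 0.0033 of that of Slc2a1 (0.192, 0.195 and 0.189 in the 3 libraries), and the libraries were nearly equal. Slc2a7, another member of the same subclass, starts 4802 bases beyond the end of Slc2a5 on the same strand, with no annotated gene between them, and had no count in any library. In CPM, the count relative to the library total, the limit that a count of 0 allows (3 counts) was 0.175 in replicate 1, 0.191 in replicate 2 and 0.183 in replicate 3. Such limits cover counting error only.

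The promoter windows of these neighbours and of Slc2a1 are shown because the 3 genes span the range from the highest member to no count. Each holds 250 bases before and 50 after the RefSeq start (GRCm38.p6, 5′ to 3′), with every CG dinucleotide in capitals.
Slc2a1, chr4:119108495-119108794, plus strand: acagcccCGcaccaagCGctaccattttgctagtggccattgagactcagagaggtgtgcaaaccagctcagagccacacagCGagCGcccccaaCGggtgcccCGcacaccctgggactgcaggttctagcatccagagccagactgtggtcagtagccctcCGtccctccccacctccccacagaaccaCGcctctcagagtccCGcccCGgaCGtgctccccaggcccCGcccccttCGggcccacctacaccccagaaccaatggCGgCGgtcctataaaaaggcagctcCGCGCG
Slc2a5, chr4:150119094-150119393, plus strand: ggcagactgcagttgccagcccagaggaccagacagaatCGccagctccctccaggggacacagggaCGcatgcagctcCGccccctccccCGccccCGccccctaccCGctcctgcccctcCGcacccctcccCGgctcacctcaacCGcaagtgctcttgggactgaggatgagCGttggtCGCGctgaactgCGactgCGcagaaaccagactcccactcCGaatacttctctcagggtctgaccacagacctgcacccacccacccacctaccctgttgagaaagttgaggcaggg
Slc2a7, chr4:150148637-150148936, plus strand: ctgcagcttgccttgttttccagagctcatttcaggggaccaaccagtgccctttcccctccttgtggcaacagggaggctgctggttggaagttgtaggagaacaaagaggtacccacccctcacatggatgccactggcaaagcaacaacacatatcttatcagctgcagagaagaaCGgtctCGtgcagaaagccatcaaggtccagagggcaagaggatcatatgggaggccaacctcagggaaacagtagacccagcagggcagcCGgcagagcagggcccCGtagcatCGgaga
There were 18 CG dinucleotides in the window of Slc2a1, 15 in that of Slc2a5 and 5 in that of Slc2a7, where the median over 32851 windows was 7. The letters GGGCGG, a core of Sp1 sites, occurred on either strand 2 times for Slc2a1, 3 times for Slc2a5 and 0 times for Slc2a7, and at least once in 35.7% of all windows. These are descriptions of 3 windows, and their order did not hold for all members. The window of Slc5a3 (2.39 FPKM) had 38 CG dinucleotides and that of Slc16a4 (14.1 FPKM) had 3. Windows were matched for 34 of 48 members (70.8%), too few for a count over the families.

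Of the remaining Slc2 genes, 4 were detected. Slc2a8 (chromosome 2, 32972990 to 32982083), which encodes a carrier held in intracellular membranes, was at 25.1, 23.4 and 24.9 FPKM, so it was above Slc2a3 in each library. Slc2a12 was at 14.8, 13.4 and 15.4 FPKM, and the urate carrier Slc2a9 at 5.63, 6.34 and 6.56 FPKM. Slc2a12 shares 407 exon bases with Tbpl1 on the opposite strand, which was at 31.8 ± 0.68 FPKM, and both genes had whole estimated counts in all 3 libraries. Slc2a6, known from lysosomal membranes of macrophages, was at 2.23, 3.02 and 4.51 FPKM, lowest in replicate 1 and highest in replicate 3. Its ratio to Slc2a8 was 0.0888, 0.129 and 0.181. Slc2a10 (0.60 ± 0.20 FPKM) and the proton-coupled inositol carrier Slc2a13 (0.43 ± 0.23) were under the detection rule, and the pseudogene Slc2a4rg-ps had 2, 20 and 3 counts.

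**Figure D2:**
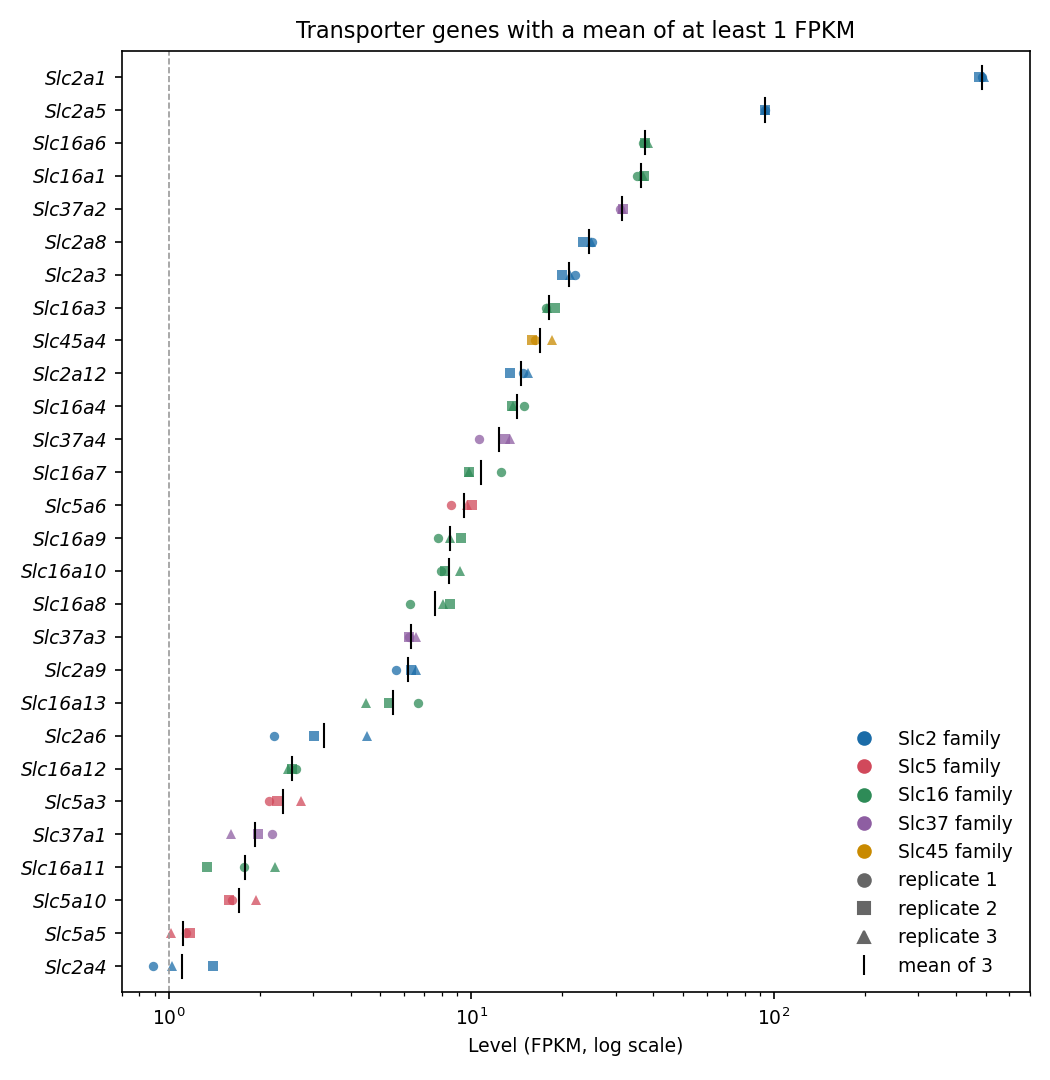
Levels in FPKM on a log axis for 28 of the 29 members with a mean of at least 1 FPKM, ordered by mean, with 1 symbol per library and a black tick at the mean. The dashed line is 1 FPKM. Slc2a1 and Slc2a5 stand apart from all others, and below 40 FPKM most neighbours share part of their range.

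In the order of the 28 detected members, the library ranges of 18 of the 27 neighbouring pairs overlapped. In 15 of the 18 the higher gene by mean was not the higher in every library. The other 3 pairs kept 1 order within all 3 libraries, with Slc16a6 above Slc16a1, Slc5a6 above Slc16a9 and Slc16a8 above Slc37a3. Slc2a1, Slc2a5 and the pair of Slc16a6 and Slc16a1 were each set apart from what followed. From Slc37a4 at 12.3 FPKM down to Slc5a10 at 1.71 FPKM every pair of neighbours overlapped.

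Among the lactate and pyruvate carriers, Slc16a1 (chromosome 3, 104638668 to 104658462) was highest. It encodes MCT1, which is found in many cells and in brain endothelium, and was at 35.2, 37.3 and 36.9 FPKM, a mean of 36.5 ± 1.12 (SD, n = 3). Replicate 1 was lowest, but the chi-square test between libraries described below did not call Slc16a1 (adjusted p 0.157). The order of its libraries is therefore not resolved, and the part of endothelial RNA in its level was not tested. Slc16a3 (chromosome 11, 120948480 to 120960868), which encodes the lactate exporter MCT4 of glycolytic cells, was at 17.7, 18.9 and 17.7 FPKM. Its ratio to Slc16a1 was 0.497 ± 0.014 (SD, n = 3), and its coefficient of variation in CPM was 3.84%, beside the 3.91% that counting error alone gives. Slc16a7 (MCT2), a high-affinity carrier known from neurons, was at 12.6, 9.86 and 9.83 FPKM, high in replicate 1. Slc16a8 (MCT3), known from retinal pigment epithelium and choroid plexus, was at 6.28, 8.48 and 8.09 FPKM, low in replicate 1. The choroid plexus and ependymal markers summed to 6299, 6598 and 7179 FPKM in replicates 1, 2 and 3. Ttr alone, at 5690 ± 404 FPKM, made up most of that sum. Of the 8 markers, 5 were lowest in replicate 1, as Slc16a8 was. Only 2 were highest in replicate 2, as Slc16a8 was, against 5 in replicate 3. The part of these cells in the Slc16a8 level was not tested.

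The glycoproteins that bring MCT proteins to the surface were both detected. Bsg (basigin), the chaperone of Slc16a1 and Slc16a3, was at 864, 960.1 and 867 FPKM, and Emb (embigin), the usual chaperone of Slc16a7, at 34.5, 36.03 and 35.2 FPKM. Bsg exceeded Slc16a1 by 24.6 ± 1.11 times within a library (SD, n = 3). The pyruvate reductase genes Ldha and Ldhb were at 196 ± 19.6 and 291 ± 15.8 FPKM.

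Slc16a10, which encodes TAT1, a carrier of aromatic amino acids that also moves thyroid hormone, was at 7.95, 8.20 and 9.17 FPKM. Its effective length, recovered from count and FPKM, differed between libraries (4503, 4176 and 4094 nucleotides). In CPM, which uses no length, the values were 35.8, 34.3 and 37.5. Replicate 3 was highest on both scales, while replicates 1 and 2 changed order. The coefficient of variation in CPM was 4.45%, beside the 4.12% that counting error alone gives, so the order of libraries is not resolved. In the thyroid hormone list 3 of 5 genes were detected. The endothelial carrier Slco1c1 was at 132 ± 6.92 FPKM, the receptor Thra at 11.5 ± 0.88 and the activating deiodinase Dio2 at 1.27 ± 0.19 FPKM, while the inactivating deiodinase Dio3 had no count.

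The highest Slc16 gene was Slc16a6 (chromosome 11, 109450855 to 109473598), a carrier of ketone bodies and taurine, at 36.8, 37.4 and 38.4 FPKM. Its range overlapped that of Slc16a1, which was lower in each library. Slc16a6 was the 1 member with fractional estimated counts (2456.81, 2276.8 and 2440.85). On the opposite strand, 1052 of its 4883 exon bases overlap Amz2 (12.7 ± 0.41 FPKM) and 48 overlap Arsg, and both of those genes had whole counts. The orphan Slc16a4 was at 14.1 ± 0.70, the carnitine carrier Slc16a9 at 8.52 ± 0.74, Slc16a13 at 5.51 ± 1.10, the creatine carrier Slc16a12 at 2.56 ± 0.075 and the pyruvate carrier Slc16a11 at 1.78 ± 0.45 FPKM. Slc16a11 and Slc16a13 lie 371 bases apart on opposite strands, with their ends facing each other. Slc16a14 had 24 counts in all and Slc16a5 none.

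Sodium-coupled carriers were mostly absent from the detected set. Of those detected, Slc5a6, Slc5a3 and Slc5a5 do not carry glucose as their main substrate, and Slc5a10 is a little studied sugar carrier. Slc5a6 (chromosome 5, 31036036 to 31048924), which takes up biotin and pantothenate, was at 8.60, 10.1 and 9.66 FPKM, lowest in replicate 1. It shares 396 exon bases with Atraid on the opposite strand, which was at 128 ± 13.8 FPKM, and both had whole counts. Slc5a3, the myo-inositol carrier, was at 2.15, 2.28 and 2.73 FPKM, highest in replicate 3. Its effective length of 10620.0 nucleotides was the longest among the 31 members for which it could be recovered, and its low FPKM rested on 380.0 to 474 counts. In CPM, Slc5a3 (25.3) stood above Slc37a4 and Slc16a7 (23.1 and 23.0), which exceeded it in FPKM. Slc5a10 was at 1.62, 1.58 and 1.94, and the iodide carrier Slc5a5 at 1.14, 1.18 and 1.02 FPKM, just above the rule. The inositol enzymes Isyna1 and Impa1 were at 66.5 ± 0.43 and 24.7 ± 1.80 FPKM, and Miox, which degrades inositol, had no count.

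The intestinal and renal glucose carriers were at or near 0. Slc5a1 had 5, 12 and 4 counts and Slc5a2 had none, although Slc5a2 shares 597 exon bases with BC017158 at 8.63 ± 0.51 FPKM. The glucose-sensing relatives Slc5a4a and Slc5a4b, the choline carrier Slc5a7 of cholinergic neurons, and the sodium-coupled monocarboxylate carrier Slc5a12 had no count. Slc5a8, Slc5a9 and Slc5a11 had 4, 3 and 27 counts summed over the 3 libraries.

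Each of the 4 Slc37 genes was detected. Slc37a2 (chromosome 9, 37227585 to 37255738), known as a macrophage gene, was at 31.0, 31.6 and 31.5 FPKM, a mean of 31.4 ± 0.32 (SD, n = 3), and its libraries were nearly equal. Slc37a4 (chromosome 9, 44396852 to 44402968), which brings glucose 6-phosphate into the endoplasmic reticulum, was at 10.6, 12.9 and 13.4 FPKM, lowest in replicate 1. Slc37a2 exceeded it by 2.57 ± 0.31 times (SD, n = 3). Slc37a3 was at 6.21, 6.23 and 6.58, and Slc37a1 at 2.20, 1.97 and 1.61 FPKM. The phosphatase that works with Slc37a4 in most tissues, G6pc3, was at 37.01, 34.75 and 36.95 FPKM, 2.98 ± 0.44 times Slc37a4. The liver enzyme G6pc (0.09 ± 0.11 FPKM) was under the rule and the islet enzyme G6pc2 had no count.

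The promoter window of Slc37a2 is shown because, among the 34 members with a window, it is the highest whose window holds the letters GAGGAA, which contain the GGAA core that ETS factors such as Pu.1 bind. The match, read on the other strand as TTCCTC, is in capitals.
Slc37a2, chr9:37255689-37255988, minus strand: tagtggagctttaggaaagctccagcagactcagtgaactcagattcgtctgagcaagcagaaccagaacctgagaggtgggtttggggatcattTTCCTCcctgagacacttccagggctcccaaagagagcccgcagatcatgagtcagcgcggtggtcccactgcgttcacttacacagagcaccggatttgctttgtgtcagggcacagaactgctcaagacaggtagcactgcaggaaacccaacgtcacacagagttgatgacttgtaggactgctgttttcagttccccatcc
At least 1 match to GAGGAA on either strand was present in 28.3% of 32851 windows, and none lay in the windows of Slc2a1 and Slc2a5. Among the 34 members with a window, only Slc37a2, Slc16a4, Slc5a3, Slc5a10 and Slc5a11 had a match. Members were counted by gene, some of them with several windows, whereas 28.3% is a share of windows. The shares are therefore not compared, and no difference was tested. The longer GAGGAAGT was in 3.2% of all windows and in none of those matched to members. A match of letters is not a binding site, and no binding data were analysed here.

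Among the Slc45 genes, Slc45a4 (chromosome 15, 73577424 to 73645762), a proton-coupled sugar carrier, was at 16.2, 15.8 and 18.5 FPKM, highest in replicate 3. Slc45a3, known from prostate, was at 0.23, 0.28 and 0.10 FPKM, on 12, 13 and 5 counts. The brain carrier Slc45a1 and the melanosomal carrier Slc45a2 had none.

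Genes that act on the transported substrates were counted from lists written together with the tests, and 52 of 62 were detected, beside 55.5% of protein-coding genes. In glycolysis, 18 of 21 genes were detected at a median log2(FPKM + 1) of 5.0 ± 0.07 (SD, n = 3), with Gapdh highest at 694 ± 36.4 FPKM. Of the hexokinases that trap glucose, Hk2 was at 31.0 ± 1.53, Hk3 at 18.1 ± 0.48 and Hk1 at 13.6 ± 1.16 FPKM. For fructose, which Slc2a5 carries, the kinase Khk was at 14.26, 16.02 and 12.79 FPKM and Tkfc at 2.87 ± 0.55. Sord, which makes fructose from sorbitol, was at 16.5 ± 0.78. All 8 genes of mitochondrial pyruvate use were detected, with the carrier subunits Mpc1 and Mpc2 at 143 ± 7.04 and 34.5 ± 6.48 FPKM and Pdk4 lowest at 3.33 ± 0.45. All 5 ketone body genes were detected, from Oxct1 at 57.5 ± 2.61 to Bdh1 at 2.19 ± 0.48 FPKM. All 8 genes of GLUT trafficking and regulation were detected, from Txnip, whose product promotes removal of Slc2a1 from the surface, at 932 ± 19.3 to Tbc1d4 at 4.87 ± 0.12 FPKM.

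**Figure D3:**
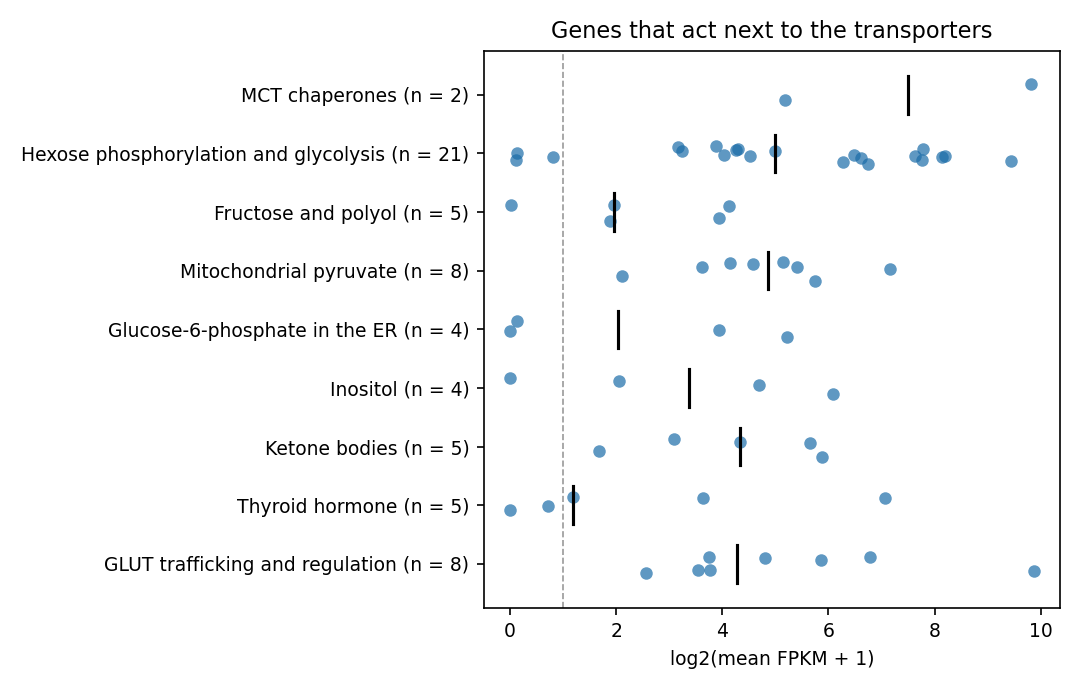
Each point is a gene of 1 of 9 lists, placed by log2(mean FPKM + 1), with list medians in black and a dashed line at 1 FPKM. Txnip and Bsg lie farthest to the right, and the fructose, endoplasmic reticulum and thyroid hormone lists each include genes at or near 0.

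The last question was how steady the members were between the 3 libraries. A chi-square test of equal CPM (edgeR TMM scaling, Benjamini-Hochberg adjustment over 13246 genes, threshold 0.05) called 10 of the 31 members it could test (32.3%), beside 41.4% of all genes tested, a lower share of members than of genes in general. Among genes with a mean of at least 10 CPM the shares were 36.4% (8 of 22 members) and 45.9%. The test compares libraries, not conditions, and it responds to spread that all genes share. The biological coefficient of variation (edgeR tagwise) estimates the spread beyond counting error as a share of the level. Each gene's value is drawn towards that of genes of like abundance. The median coefficient was 0.084 over members and 0.087 over all genes. The count rested on which libraries were compared. Without replicate 1, 6 of 31 members were called (19.4%, beside 28.2% of all genes), and without replicate 3, 4 of 33 (12.1%, beside 23.5%). Without replicate 2 the order was the opposite, with 8 of 31 members (25.8%) beside 18.6% of all genes, so no order of members and genes held in each setting.

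Most called members were highest in replicate 3, but not all moved together. Slc2a6, at 4.13, 5.61 and 8.36 CPM, had the lowest adjusted p of the chi-square test with edgeR scaling (3.436e-05), and its highest library was 2.02 times its lowest. Slc2a13 (1.92, 1.78 and 4.33 CPM), Slc5a3 (22.9, 24.2 and 28.9), Slc45a4 (63.4, 61.8 and 70.9), Slc2a12 (51.6, 46.7 and 53.5) and Slc2a1 (1113, 1094 and 1133) were also highest in replicate 3. Slc16a13 (15.02, 12.05 and 10.07 CPM) and Slc16a7 (26.83, 21.099 and 20.999) were instead highest in replicate 1. Slc37a4 (19.97, 24.22 and 24.97) and Slc16a8 (9.49, 12.8 and 12.2) were lowest there. Of these, Slc37a4 was highest in replicate 3 and Slc16a8 in replicate 2. The size of the difference was small where counts were high: in Slc2a1 the highest library was 1.04 times the lowest. Among members with at least 10 CPM, the highest coefficients belonged to Slc16a13, Slc16a8 and Slc16a7 (0.125, 0.123 and 0.096) and the lowest to Slc2a1, Slc2a5 and Slc16a6 (0.049, 0.049 and 0.052). Because of the draw towards genes of like abundance, this order also follows count depth and is not each gene's own spread alone. Slc2a5 had 0.049 although its CPM varied by less than counting error.

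**Figure D4:**
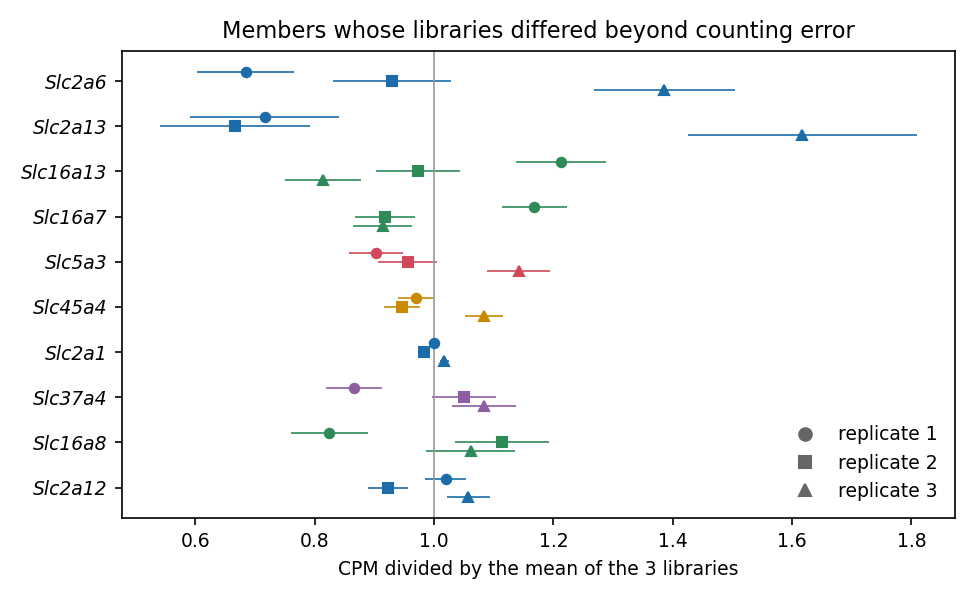
CPM in each library divided by the member's mean over 3 libraries, for the 10 members called by the chi-square test, with bars of 1 standard error from counting alone. Slc2a6 and Slc2a13 are highest in replicate 3, Slc16a13 and Slc16a7 in replicate 1, and Slc2a1 lies within a few percent of 1.

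Slc2a5 had the smallest chi-square value of all 13246 genes tested. Its counts of 4516, 4123 and 4305 gave 262.88, 262.82 and 262.80 CPM, a coefficient of variation of 0.0154%, where counting error alone gives 1.52% at that depth. The libraries were thus closer to each other than counts of this size can resolve. Among so many genes some gene must hold the smallest value, and whether chance alone gives 1 this small was not tested. Slc37a2 also varied by less than its counting error (1.05 against 2.18%), and Slc16a12 did so at a lower depth (3.13 against 8.14%).

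**Figure D5:**
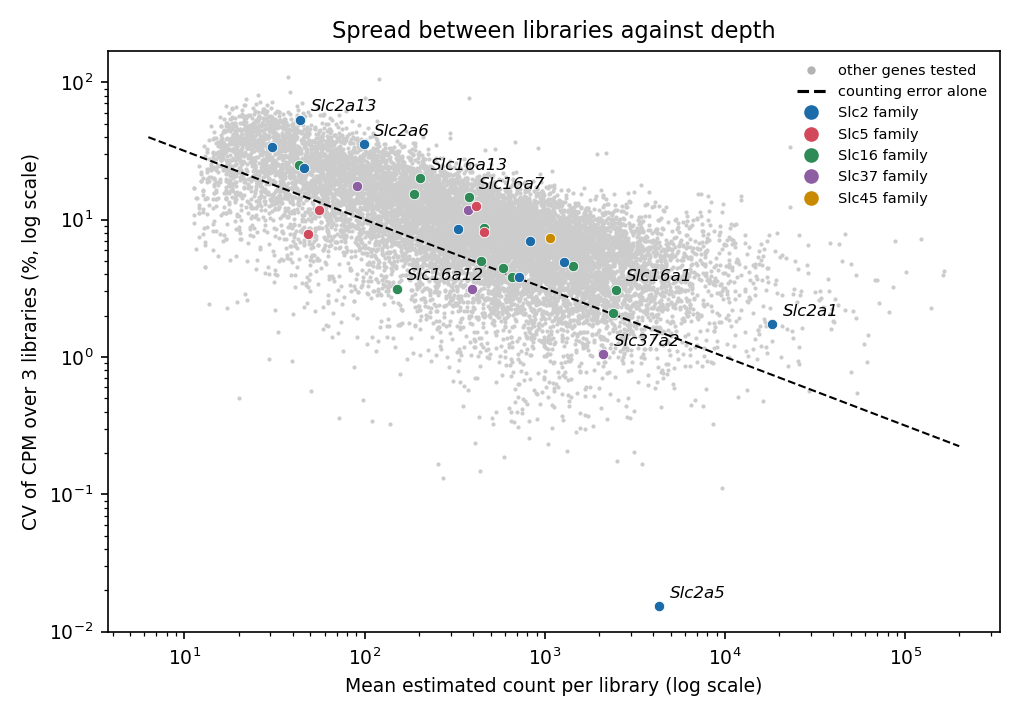
Coefficient of variation of CPM over the 3 libraries (%) against the mean estimated count per library, both on log axes, for members by family and all other genes tested in grey. The dashed line is the coefficient that counting error alone gives. Slc2a5 lies at 0.0154%, under all other genes, and Slc2a13 and Slc2a6 lie above the line.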

How the data were processed

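Total RNA of 3 microglial libraries was sequenced. Per the submitters' processing notes, the tools were RSEM, DESeq2 and STAR 2.7.9a and the builds mm10 and GRCm38, with no settings or annotation stated in the sources used here. The authors deposited estimated counts per gene, not scaled between libraries and not whole in 4.07% of values, and FPKM, which divide counts by library total and effective gene length. The sources used here give no strandedness, so values of genes with overlapping exons are less certain. There were 0 columns of other samples.

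Members, gene lists and tests were chosen with earlier results of these data known. Every member is counted, with values for those at a mean of at least 1 FPKM, each library's value for the 3 highest of each family, and the 3 highest and 3 lowest dispersions among members of at least 10 CPM. The rule on partner genes named the highest and lowest of each list and Bsg, Emb, Txnip, G6pc3, Hk2 and Khk; other partner genes, ratios to neighbours and the genes of overlapping exons were added after values were seen. Some genes that these rules name are not reported here.

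A gene was called detected at 1 FPKM or more in all 3 libraries, and medians used a pseudocount of 1. Counts were rounded, filtered with edgeR 4.0.16 defaults (13246 genes kept; R 4.3.3) and scaled by TMM. Alternatives were other thresholds, pseudocounts, units, size factors (DESeq2 1.42.0) and filters, and leaving out each replicate. Coordinates are 1-based, from GENCODE M21 on GRCm38, in which all 48 symbols matched 1 gene. Promoter windows came from RefSeq GRCm38.p6.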

Additional observations from a re-analysis of the deposited data

How the results depend on the processing

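No paired analysis was possible because there was 1 group. Detection of members stayed within 1.5 times the main count under each alternative tried, except in Slc5, where 2 genes reached 2 FPKM and 1 reached 5 FPKM. Leaving out a replicate gave 28 to 29 detected members. Family levels depended on scale. At a pseudocount of 0.1 and of 0.01 the level was 3.11 and 3.09 for Slc16, 3.16 and 3.14 for Slc37, -2.93 and -4.92 for Slc5, and -2.55 and -4.49 for Slc45, and at 0.01 it was 1.65 for Slc2. With TMM-normalised CPM they were 2.77 for Slc2, 0.18 for Slc5, 4.66 for Slc16, 4.61 for Slc37 and 0.34 for Slc45, so that Slc16 and Slc37 changed places. Over members with a mean of at least 1 FPKM, a choice that removes low members, they were 4.21 for Slc2, 1.60 for Slc5, 3.42 for Slc16 and 4.16 for Slc45. Without the 10 most abundant genes in the total, shares were 0.169% for Slc2, 0.0615% for Slc16, 0.0194% for Slc37 and 0.00707% for Slc45. Ratios of estimated counts, which ignore length, were 0.236 for Slc2a5 to Slc2a1, 14.4 for Slc2a1 to Slc2a3, 0.264 for Slc16a3 to Slc16a1, 6.69 for Slc16a1 to Slc16a7, 6.67 for Bsg to Slc16a1, 5.63 for Slc37a2 to Slc37a4 and 2.01 for G6pc3 to Slc37a4. The chi-square test called 4 to 8 members when a replicate was left out, which has fewer libraries to compare, and 10, 10 and 11 with DESeq2 size factors, library totals alone and no filter. Rescaling FPKM to TPM, so that each library has the same sum, moved all 29 member levels by more than their SD, since the deposited values summed to 529085 to 560743 per library. Depth limits members with few counts, such as Slc2a4rg-ps and Slc5a11.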

Other observations

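The aldose reductase gene Akr1b3, which makes sorbitol and was in the fructose list, was listed at 8.08, 0 and 0 FPKM in replicates 1, 2 and 3. Its estimated counts were 155.66, 0 and 0, so the value in replicate 1 was fractional. Why the libraries differed was not tested. Mrps6, which shares 159 exon bases with Slc5a3 on the same strand, was at 25.8 ± 6.29 FPKM (SD, n = 3), a wider spread than that of Slc5a3. Beside Slc16a10, the effective length differed most between libraries in Slc37a1, at 2884, 2973 and 2772 nucleotides in replicates 1, 2 and 3, while its CPM were 6.34, 5.86 and 4.46.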
